A study of Arabidopsis thaliana with 103 samples.

Results

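The comparison was between seedlings of the Arabidopsis thaliana double mutant pial1/2 (pial1-2 pial2-1) and Col-0 seedlings, across genes. Genes were the loci of the RNA-seq tables with an identifier from AT1G to AT5G, 33323 of the 64790 features listed, and transposable element entries were left out. There were 3 pial1/2 libraries and 3 Col-0 libraries, 6 of the 42 RNA-seq libraries used here. Both alleles of pial1/2 are T-DNA insertions in the Col-0 background, and Col-0 is the wild type accession that shares this background. Plants of both groups were 12-day-old whole seedlings grown on agar plates. The study asked how the MOM1 complex is tied to RNA-directed DNA methylation and to MORC proteins, and the double mutant removes a pair of related members of that complex.

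PIAL1 and PIAL2 are paralogous proteins with a SUMO E3 ligase type RING domain that bind MOM1, a plant protein needed to keep transposons and some transgenes silent. MOM1 is known for acting on transcription with little loss of DNA methylation at most of its targets. MORC proteins are ATPases that compact chromatin and act at sites of RNA-directed DNA methylation, the pathway in which small RNAs and the polymerases Pol IV and Pol V direct methylation to repeats.

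Summed expected counts were 16079528 to 19941288 in the pial1/2 libraries and 20808296 to 25378880 in the Col-0 libraries. A gene was tested when its CPM (the count scaled to the summed count of its library) was at least 1 in 2 of the 6 libraries, which left 19595 genes. A gene was called when its adjusted p (edgeR quasi-likelihood test, Benjamini-Hochberg) was below 0.05 and its log2 fold change was at least 1 either way. The labels do not say whether replicates were separate cultures, so p-values measured the spread between these libraries. CPM is not corrected for gene length, so levels were compared between genotypes and not between genes. A whole seedling is a mixture of tissues, in which more cells of a type and more RNA per cell cannot be told apart.

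PIAL2 transcript was low in the double mutant. Its level was 1.93, 1.65 and 1.05 CPM in pial1/2, against 11.6, 10.6 and 11.8 CPM in Col-0, a log2 fold change of -2.86 (SE 0.185, adjusted p = 1.92e-04). PIAL1 stood at 19.7, 18.9 and 22.9 CPM in pial1/2, against 18.7, 16.9 and 18.9 CPM in Col-0 (log2 fold change 0.21, adjusted p = 1.0). The pial1-2 libraries averaged 18.5 CPM for PIAL1. The tables sum reads over a whole gene, so a level of PIAL1 transcript does not check an insertion that would alter the transcript and not its amount. MOM1 itself averaged 18.6 CPM in pial1/2 and 18.8 CPM in Col-0, with a log2 fold change of 0.02.

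The double mutant showed higher transcript from a small set of loci and almost no lower transcript. In pial1/2, 45 genes were called higher (0.23% of the genes tested) and 2 were called lower (0.0102%), 47 in all (0.24%). The fit also held 199 transposable element entries, of which 49 were called higher and 0 lower by edgeR, and 40 organelle genes, of which 0 were called by edgeR. The median log2 fold change over all genes tested was 0.000298, and 95% of genes moved by less than 0.348 on the log2 scale in either direction. At an unadjusted p below 0.05 there were 321 higher and 394 lower genes. Of the genes past the adjusted p without the limit on fold, 48 were higher (0.245%) and 2 were lower. With the replicate number as a block, the 45 higher genes were called again among 52, and lower calls went to 8.

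**Figure D1:**
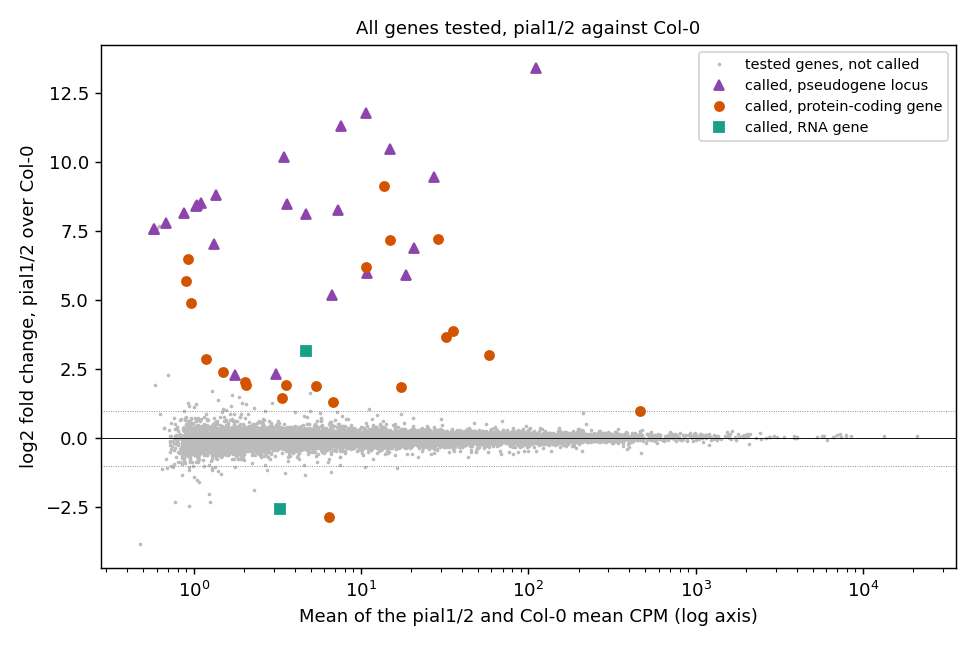
Each point is a tested gene, with the mean CPM of the 6 libraries on a log x axis and the log2 fold change of pial1/2 over Col-0 on the y axis; called genes are marked by locus class. The 45 genes called higher reach up to 13.44 on the log2 scale, and the 2 called lower, PIAL2 and AT1G67328, stand at -2.86 and -2.55.

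Every one of the 45 genes had all 3 pial1/2 libraries above all 3 Col-0 libraries, which held for 445 of the 19595 genes tested (2.27%). They were of 2 main kinds. By the TAIR10.1 annotation 24 were pseudogene loci, a class that in this annotation takes in transposon-derived genes, 20 were protein coding and 1 was an RNA gene. Called shares were 12.4% of the 194 pseudogene loci tested, 0.105% of the 19096 protein coding genes and 0.426% of the 235 RNA genes. The filter bears on these shares, because 23 of the 24 pseudogene loci and 11 of the 20 protein coding genes reached it through the pial1/2 libraries and not through Col-0. Over all loci listed, 0.496% of 4837 pseudogene loci and 0.0749% of 26712 protein coding genes were called. Most of the 45 had little transcript in Col-0. Their mean level had a median of 8.35 CPM in pial1/2 and of 0.199 CPM in Col-0. For the pseudogene loci these medians were 7.07 and 0.0131 CPM, and for the protein coding genes 9.01 and 0.838 CPM. There were 0 counts in all 3 Col-0 libraries for 11 genes, all of them pseudogene loci. Another 9 genes had 1 to 3 counts pooled over Col-0. For such genes the text gives a lower bound of the fold, from 3 counts over the Col-0 group, or a ratio with its 95% Clopper-Pearson interval, which covers counting error only.

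**Figure D2:**
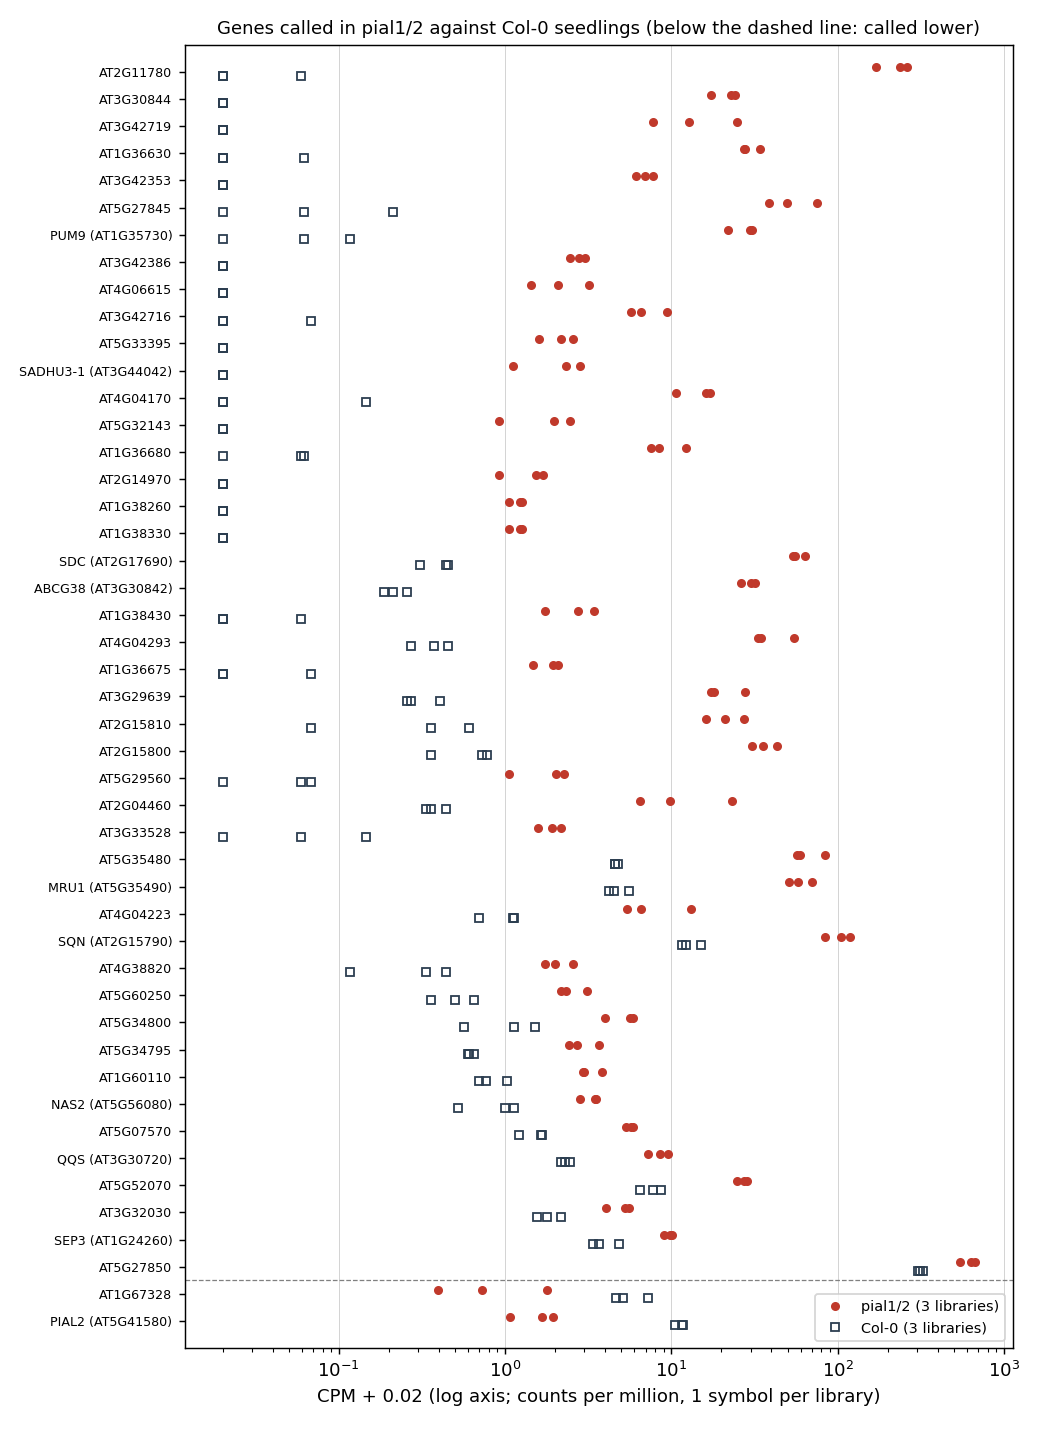
CPM plus 0.02 in each library on a log x axis for the 47 called genes, with filled symbols for the 3 pial1/2 libraries and open symbols for the 3 Col-0 libraries. The 45 genes above the dashed line have every pial1/2 library to the right of every Col-0 library, and the 2 genes below it have the reverse order.

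SDC (AT2G17690) encodes an F-box protein and is a known target of DNA methylation at repeats in its promoter. It had 63.6, 54.0 and 55.3 CPM in pial1/2, against 0.421, 0.288 and 0.433 CPM in Col-0. The lowest pial1/2 library stood far above the highest Col-0 library (log2 fold change 7.23, SE 0.152, adjusted p = 5.85e-07). PUM9 (AT1G35730), which encodes an RNA-binding protein of the Pumilio family, had 30.5, 21.8 and 29.9 CPM in pial1/2. In Col-0 it had 0.0421, 0.0961 and 0 CPM, a pooled ratio of 643 (95% interval 220 to 3120, adjusted p = 1.67e-05). QQS (AT3G30720) is an orphan gene that affects starch content and is known for variable methylation of repeats around its start. It had 9.52, 8.54 and 7.22 CPM in pial1/2, against 2.44, 2.16 and 2.29 CPM in Col-0. The groups did not overlap, and the change was smaller than at SDC and PUM9 (log2 fold change 1.90, SE 0.146, adjusted p = 5.5e-04).

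Repeats upstream of these 3 genes are shown because ChIP-seq peaks of PIAL2-Myc or MORC6-Myc lay on or beside them. The sequences are from the RefSeq genome TAIR10.1, 5′ to 3′ on the strand of the gene. Capitals mark the repeat copies that the search found. The SDC window is chr2:7681862-7682161 (+), the 300 bases before the annotated start. The PUM9 window is chr1:13230724-13230928 (-), further upstream. The QQS window is chr3:12348747-12349046 (+), the 300 bases before the start.
SDC: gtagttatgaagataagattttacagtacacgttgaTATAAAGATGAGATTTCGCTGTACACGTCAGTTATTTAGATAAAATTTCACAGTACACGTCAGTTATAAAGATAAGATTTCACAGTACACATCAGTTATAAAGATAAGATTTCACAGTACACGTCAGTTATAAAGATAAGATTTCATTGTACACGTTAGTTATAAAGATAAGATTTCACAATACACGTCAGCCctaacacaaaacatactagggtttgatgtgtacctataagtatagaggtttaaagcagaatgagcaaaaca
PUM9 upstream: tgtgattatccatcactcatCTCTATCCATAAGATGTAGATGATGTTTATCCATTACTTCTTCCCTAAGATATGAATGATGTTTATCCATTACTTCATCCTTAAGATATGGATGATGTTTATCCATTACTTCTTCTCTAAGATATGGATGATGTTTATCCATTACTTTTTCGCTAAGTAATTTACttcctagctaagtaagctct
QQS: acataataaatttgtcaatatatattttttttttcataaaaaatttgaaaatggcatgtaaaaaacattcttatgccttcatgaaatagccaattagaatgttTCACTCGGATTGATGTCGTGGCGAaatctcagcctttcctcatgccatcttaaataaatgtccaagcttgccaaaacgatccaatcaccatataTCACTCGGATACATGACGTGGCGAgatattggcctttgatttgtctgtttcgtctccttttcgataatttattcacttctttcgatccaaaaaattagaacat
The capitals of SDC hold 6.0 copies of a 32-base unit over 193 bases, with 96.9% identity between neighbouring copies in the best stretch. The lower-case bases just before these capitals hold a further, closely similar copy. It lies at another spacing, so the search, which used a fixed spacing, did not count it. Those of PUM9 hold 4.6 copies of a 36-base unit over 165 bases, with 91.7% identity, from 977 to 813 bases before the start. In QQS a pair of 24-base stretches matched at 21 positions (87.5%) with starts 94 bases apart. Over the 1000 bases before each start, tandem repeats with units of 10 to 100 bases and at least 90% identity were found at 3 of the 45 genes (6.67%) and at 74 of 19524 genes tested (0.379%). The third was AT3G30844, a pseudogene locus with a 47-base unit. The QQS pair lies below the length that this search required. The filter on CPM also bears on the shares of 6.67% and 0.379%. SDC, PUM9 and AT3G30844 reached it through the double mutant only, with at most 0.433, 0.0961 and 0 CPM in any wild type library. Of the 19595 genes tested, 19290 passed it in the wild type. A share over all loci listed was not tested, so the difference cannot be read apart from the filter.

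Some peak summits of the tagged proteins fell in or near the printed repeats. Both MORC6-Myc replicates had a summit in the capitals of SDC, at 153 and 188 bases before the start, with −log10 q values of 27.0 and 10.4. Neither PIAL2-Myc replicate listed a summit in the SDC window. At PUM9, PIAL2-Myc summits at -875 and -877 (−log10 q 9.25 and 8.95) and MORC6-Myc summits at -828 and -832 (51.0 and 11.1) all lay in the capitals. Each replicate listed 3 peaks near PUM9, and in 2 replicates a stronger summit lay after the start, outside the printed window. These were PIAL2-Myc replicate 1 at 14 bases (22.1) and MORC6-Myc replicate 2 at 1339 bases (19.1). At QQS the PIAL2-Myc summits at -57 and -137 (28.1 and 26.7) and the MORC6-Myc summits at -41 and -110 (102 and 195) lay outside the capitals, downstream of the first copy. The ChIP-seq was made from unopened flower buds and the RNA-seq from seedlings, so the tissues differ.

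Other protein coding genes with large changes included ABCG38 (AT3G30842), which encodes an ABC transporter. It had 30.2, 26.2 and 31.7 CPM in pial1/2, against 0.168, 0.192 and 0.236 CPM in Col-0 (log2 fold change 7.19, SE 0.177, adjusted p = 1.07e-06). AT3G29639, of unknown function, had 27.8, 18.1 and 17.2 CPM in pial1/2, against 0.252, 0.384 and 0.236 CPM in Col-0 (log2 fold change 6.20, SE 0.305). In both genes the Col-0 libraries lay close to 0 and the mutant libraries did not come near them. AT5G35480 had 83.5, 57.0 and 59.7 CPM in pial1/2, against 4.54, 4.57 and 4.73 CPM in Col-0 (log2 fold change 3.89, SE 0.171). Its neighbour MRU1 (AT5G35490), named for a rise in a methionine over-accumulating mutant, had 70.1, 57.7 and 51.2 CPM in pial1/2, against 5.55, 4.52 and 4.22 CPM in Col-0 (log2 fold change 3.68, SE 0.154). Both genes of this pair were thus transcribed in Col-0 and over 10 times more abundant in the mutant, with fitted folds of 14.8 and 12.8. SQN (AT2G15790), the cyclophilin 40 that assists microRNA effector assembly and the timing of shoot maturation, had 119, 84.0 and 105 CPM in pial1/2 and 15.1, 11.5 and 12.3 CPM in Col-0 (log2 fold change 3.02, SE 0.162).

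Smaller changes were measured at genes that were active in Col-0. AT5G27850, a ribosomal protein of the L18e/L15 family, was the most abundant of the called genes by CPM. Its level was 636, 544 and 670 CPM in pial1/2, against 303, 325 and 314 CPM in Col-0 (log2 fold change 1.01, SE 0.0975, adjusted p = 0.00251). This fold lies at the limit, and the call was lost without pial1/2 replicate 1, pial1/2 replicate 3 or Col-0 replicate 1. AT5G52070, with an Agenet domain of the kind that binds histone tails, averaged 26.9 ± 1.78 CPM in pial1/2 and 7.62 ± 1.12 CPM in Col-0 (SD, n = 3 each, log2 fold change 1.85). SEP3 (AT1G24260), a MADS-box factor of floral organ identity, had 10.0, 9.76 and 9.03 CPM in pial1/2, against 3.37, 4.85 and 3.66 CPM in Col-0 (log2 fold change 1.31, SE 0.149, adjusted p = 0.00638). The SEP3 call was lost without Col-0 replicate 3. NAS2 (AT5G56080), a nicotianamine synthase of metal transport, averaged 3.26 ± 0.402 CPM in pial1/2 and 0.865 ± 0.318 CPM in Col-0 (SD, n = 3 each). Its call was lost without pial1/2 replicate 2 or 3, without Col-0 replicate 2 or 3, and when all RNA-seq groups entered 1 fit. AT4G38820, the lowest of the protein coding genes picked by fold, had 1.99, 1.71 and 2.56 CPM in pial1/2, against 0.421, 0.0961 and 0.315 CPM in Col-0 (log2 fold change 2.89, adjusted p = 0.0193). Its call was likewise lost without pial1/2 replicate 2 or 3 or without Col-0 replicate 2 or 3.

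Among pseudogene loci, AT2G11780 (chromosome 2, 4729678 to 4732966) had the largest change. It reached 260, 169 and 238 CPM in pial1/2, against 0, 0 and 0.0394 CPM in Col-0, a pooled ratio of 15600 with an interval of 2800 to 616000. A single read in a single Col-0 library set the denominator, and the adjusted p was 2.19e-06. AT3G30844 (chromosome 3, 12602729 to 12606196) had 24.1, 17.3 and 22.8 CPM in pial1/2 and 0 counts in Col-0, at least 501-fold higher (adjusted p = 1.36e-04). AT1G36630 had 34.0, 27.9 and 27.3 CPM in pial1/2, against 0.0421, 0 and 0 CPM in Col-0, a ratio of 2070 (interval 370 to 81700). These 3 loci were near the floor in Col-0 and abundant in each mutant library. AT5G27845 had 75.0, 38.5 and 49.6 CPM in pial1/2, against 0.0421, 0.192 and 0 CPM in Col-0 (log2 fold change 9.48, SE 0.509). AT3G42353 had 6.90, 6.10 and 7.72 CPM in pial1/2 and 0 counts in Col-0, at least 162-fold higher. AT3G42719 was more uneven, with 24.8, 7.69 and 12.8 CPM in pial1/2 and 0 counts in Col-0, at least 347-fold higher (adjusted p = 0.0142), and its call was lost without Col-0 replicate 2. SADHU3-1 (AT3G44042), a member of a family of non-autonomous retroelements known for epigenetic variation, averaged 2.07 ± 0.875 CPM in pial1/2 (SD, n = 3) and had 0 counts in Col-0. That is at least 46.7-fold higher, and the call was lost without pial1/2 replicate 1 or 2 or without Col-0 replicate 2 or 3.

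Repeated sequence limited which copy some reads came from. In 32 of the 45 genes at least 90% of the 50-base words of the locus were unique in the genome, and in 7 fewer than 60% were. AT1G38260 and AT1G38330 had no unique word and identical values in all 6 libraries, so reads of these copies cannot be told apart. RSEM was run at its default settings, which do not use the strand, and 7 of the 45 genes overlap a locus on the other strand. PUM9 overlaps ANNAT1, which averaged 228 CPM in pial1/2 and 247 CPM in Col-0. SDC overlaps AT2G17695, which averaged 28.0 CPM in both. Neither partner was called.

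The higher genes lay in pericentromeric intervals, as defined here, more often than the genes tested. Pericentromeric intervals were taken as the span of 500 kb windows in which at least 50% of annotated loci are pseudogenes, with the windows between them. They held 25 of the 45 genes (55.6%, 95% Clopper-Pearson interval 40.0 to 70.4%) and 346 of 19525 genes tested (1.77%). Called shares of the tested genes were 7.23% inside these intervals and 0.104% outside. Here too 21 of the 25 genes inside passed the filter through pial1/2 and not through Col-0, and over all genes listed the shares were 0.705% of 3548 inside and 0.0683% of 29287 outside. Because pseudogenes define the windows, the protein coding genes were also counted alone, with 6 of 20 inside (30.0%), against 1.5% of those tested. Of these 6 genes, 4 passed the filter through pial1/2 and not through Col-0. With 1000 kb windows 9 of 20 were inside (45.0%), against 1.39% of those tested. Of all 783 protein coding genes listed inside the 500 kb windows, 0.766% were called, beside 0.0749% of all 26712 protein coding genes listed. The 18 of 24 pseudogene loci inside (75.0%) stood beside 24.7% of pseudogene loci tested. By chromosome the 45 genes numbered 9, 7, 11, 5 and 13 from chromosome 1 to 5. The interval of chromosome 4 depended on the window, from 1500001 to 5000000 with 500 kb and from 3000001 to 5000000 with 1000 kb. Distance from the centromere itself was not measured.

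Called genes also lay side by side. There were 8 adjacent pairs with both genes called higher, made of 15 genes. SQN and AT2G15800 overlap by 74 bases on opposite strands, and AT2G15810 follows AT2G15800 after 79 bases. AT2G15800 had 43.0, 30.5 and 35.5 CPM in pial1/2, against 0.757, 0.336 and 0.709 CPM in Col-0. AT5G35480 and MRU1 start 220 bases apart on opposite strands. AT5G27845 and AT5G27850 are 1230 bases apart, and ABCG38 and AT3G30844 are 2296 bases apart. Of the other neighbours of called genes, 16 were tested and 0 passed the adjusted p in edgeR (2 at an unadjusted p below 0.05, 1 called by DESeq2). Their log2 fold changes had a median of 0.05 and ran from -0.80 to 1.49, and 58 more neighbours were too low to be tested.

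Peaks of PIAL2-Myc and MORC6-Myc were set beside the genes. MORC6 is a member of the MORC family, and both proteins carried a Myc tag. A gene counted as near a peak when both ChIP replicates had one within 1 kb. PIAL2-Myc peaks were near 14 of the 45 genes (31.1%) and near 6.83% of genes tested. MORC6-Myc peaks were near 25 of 45 (55.6%, interval 40.0 to 70.4%) and near 13.5% of genes tested. Both proteins had peaks near 13 genes, MORC6-Myc alone near 12, PIAL2-Myc alone near NAS2, and neither near 19. Some adjacent genes shared a peak, which then counted for each of them. Examples are SQN with AT2G15800, AT5G27845 with AT5G27850, and AT5G35480 with MRU1. The intervals take genes as independent and so leave this sharing out. Among the protein coding genes, 10 of 20 (50.0%) were near PIAL2-Myc and 14 of 20 (70.0%) near MORC6-Myc, against 6.59% and 13.2% of those tested. Of the 24 pseudogene loci 3 (12.5%) were near PIAL2-Myc and 10 (41.7%) near MORC6-Myc, against 22.2% and 35.1% of pseudogene loci tested, and both intervals held the share of the loci tested. Read the other way, 1.05% of genes near a PIAL2-Myc peak were called higher, against 0.17% of the rest. For MORC6-Myc these shares were 0.947% and 0.118%. The filter on CPM bears on all these shares. Of the 45 genes, 34 reached it through the double mutant and not through the wild type. These included 11 of the 20 protein coding genes and 23 of the 24 pseudogene loci. Of the 19595 genes tested, 19290 passed it in the wild type. Peak shares over all loci listed were not tested, so the differences cannot be read apart from the filter. Replicate lists differed in size, with 7881 and 1969 peaks for PIAL2-Myc and 12249 and 4916 for MORC6-Myc, so the smaller list bounded each count.

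**Figure D3:**
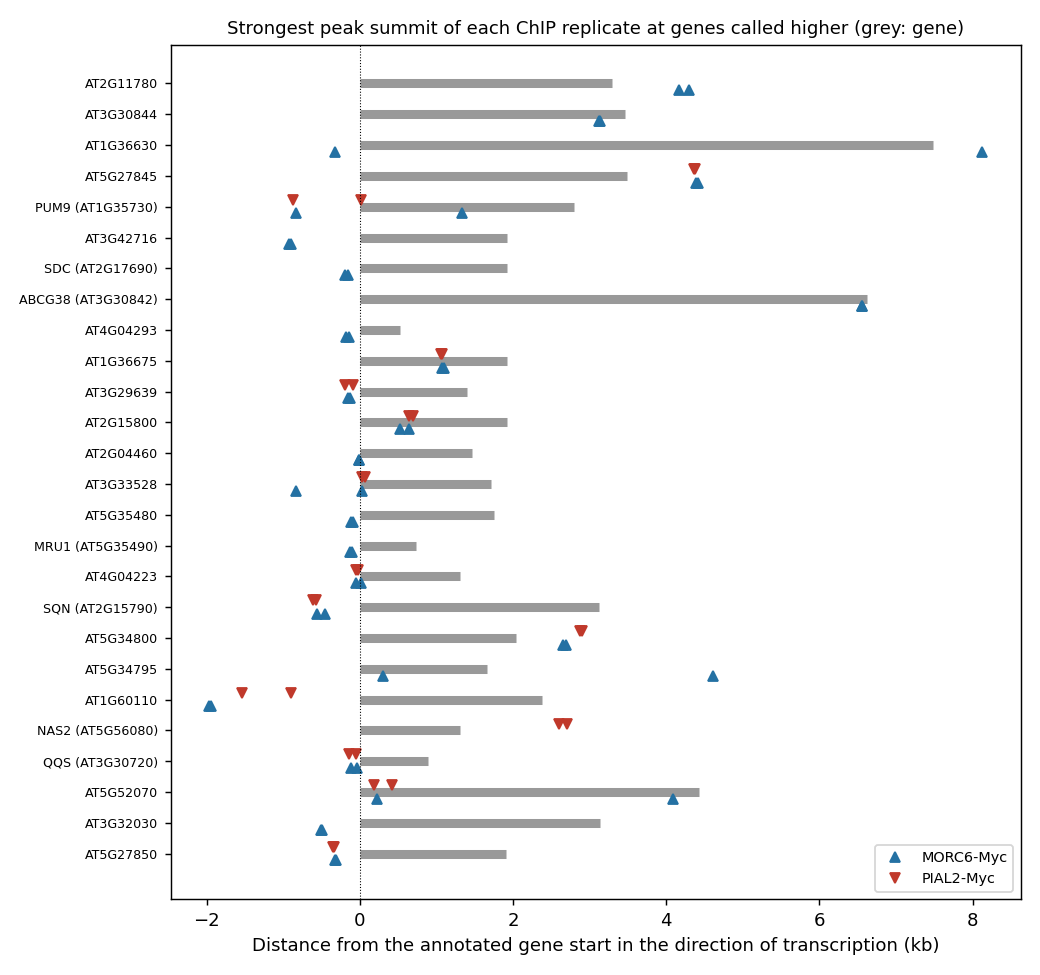
For the 26 genes called higher that were near a peak in both replicates of PIAL2-Myc or MORC6-Myc, the strongest summit of each replicate is placed by its distance in kb from the annotated start, with the gene as a grey bar. At SDC, PUM9 and QQS the summits shown upstream are those described beside the printed repeats. At PUM9 the strongest summits of PIAL2-Myc replicate 1 and MORC6-Myc replicate 2 lie after the start.

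The 2 genes called lower were PIAL2 and AT1G67328, an RNA gene that lies on the strand opposite AT1G67330. AT1G67328 had 0.373, 1.77 and 0.702 CPM in pial1/2, against 4.63, 5.09 and 7.17 CPM in Col-0 (log2 fold change -2.55, SE 0.401, adjusted p = 0.0425). All 3 mutant libraries were below all 3 Col-0 libraries, yet the adjusted p was 0.0787 when only genes were fitted and 0.936 when all RNA-seq groups were fitted together. The call was also lost without pial1/2 replicate 1 or 3 and without any 1 of the Col-0 replicates (adjusted p 0.0576 to 0.22). It held with the replicate block (0.00223), in DESeq2 (1.02e-07), with no filter (0.00826) and against the other Col-0 libraries (0.0028). AT1G67330 averaged 13.5 CPM in pial1/2 and 10.2 CPM in Col-0 and was not called.

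Genes of the silencing machinery were mostly not called. Of 239 genes on 18 lists, 203 were tested and 4 were called (1.97%), namely PIAL2, SDC, QQS and SEP3, beside 0.24% of all genes tested. PIAL2 is itself mutated in pial1/2, and the lists were chosen with earlier results of these data known. The share of 1.97% is therefore no test of the lists. At the share of 0.24% a list of this size would hold few or no calls, so a count of 0 is not particular to a list. In the MOM1 complex list 1 of 9 genes was called, PIAL2. The list of RNA-directed DNA methylation had 0 of 26 tested genes called, with a median log2 fold change of 0.01. For maintenance silencing and demethylation 0 of 20 were called (median 0.05), for the MORC family 0 of 6 (median 0.12) and for the SUMO pathway 0 of 16 (median -0.01). Of these lists, 2 genes passed the adjusted p with a fold under the limit. CLSY1, a chromatin remodeller that recruits Pol IV, had 15.8, 15.2 and 14.3 CPM in pial1/2, against 11.0, 10.6 and 10.7 CPM in Col-0 (log2 fold change 0.52, SE 0.0824, adjusted p = 0.0431). ROS1, a DNA glycosylase that removes 5-methylcytosine, had 66.2, 63.8 and 65.6 CPM in pial1/2, against 43.7, 51.6 and 45.3 CPM in Col-0 (log2 fold change 0.51, SE 0.0813, adjusted p = 0.0444). In both the groups did not overlap. Their adjusted p passed with the block (0.0169 and 0.0059) and in DESeq2 (0.0181 and 0.000239), but not with genes only in the fit (0.0817 and 0.0841). Without any 1 library CLSY1 had an adjusted p of 0.129 to 0.236, and ROS1 had 0.127 to 0.267 except without Col-0 replicate 2 (0.04). A gene on no list, AT4G13575, was the only other such gene and averaged 14.2 CPM in pial1/2 and 8.99 CPM in Col-0. The silenced single-copy genes gave 2 of 3 tested genes called, SDC and QQS. BNS on that list averaged 3.65 CPM in pial1/2 and 3.76 CPM in Col-0, and FWA was too low to be tested.

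Lists of response pathways gave no called gene in edgeR. Over the 15 lists without a call, 189 genes were tested, 22 had an unadjusted p below 0.05 (10 higher and 12 lower) and DESeq2 called 0. Over all genes tested, 3.65% had such a p (1.64% higher and 2.01% lower). With the replicate block 2 of them were called lower, JAZ7 and RD29B. Of those 22, 9 were from the jasmonate and wounding list, where all 11 tested genes had a negative log2 fold change, with a median of -0.47 and a range of -1.31 to -0.24. The summed level of that list was 458 to 486 CPM in pial1/2 and 552 to 728 CPM in Col-0. OPR3, an enzyme of jasmonate synthesis, had 32.2, 33.1 and 33.6 CPM in pial1/2, against 68.2, 42.4 and 52.1 CPM in Col-0 (log2 fold change -0.69, adjusted p = 0.335, or 0.0175 with the block and 0.00746 in DESeq2). The spread of OPR3 lay among the Col-0 libraries. On the DNA damage list 4 of 6 tested genes had an unadjusted p below 0.05, all higher, and the list had a median of 0.30. Its summed level was 81.6 to 89.0 CPM in pial1/2 and 59.7 to 73.8 CPM in Col-0. BRCA1 had 9.70, 12.3 and 8.93 CPM in pial1/2, against 7.15, 6.06 and 5.95 CPM in Col-0 (log2 fold change 0.72, adjusted p = 0.16, or 0.0276 with the block and 0.0158 in DESeq2). The folds of OPR3 and BRCA1 are below the limit for a call. Medians for the clock (0.04, 20 tested), flowering time (-0.02, 9 tested), salicylic acid (-0.09, 16 tested), cold and drought (-0.09, 15 tested), heat shock (0.08, 5 tested) and iron and phosphate supply (-0.01, 13 tested) were close to that of all genes.

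Markers of tissue makeup were compared by their summed level. Light harvesting and Rubisco genes summed to 105000 to 121000 CPM in pial1/2 and 106000 to 114000 CPM in Col-0, with 0 of 19 called. Root markers summed to 1880 to 2570 CPM in pial1/2 and 2540 to 2640 CPM in Col-0, with 0 of 7 called. Of 7 seed storage markers none was tested, with sums of 0.122 to 0.249 CPM in pial1/2 and 0.144 to 0.63 CPM in Col-0. Flower and pollen markers summed to 11.7 to 13.7 CPM in pial1/2 and 6.02 to 7.09 CPM in Col-0, of which SEP3 was most. The part of tissue makeup in the calls was not tested.

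The single mutants were compared with the double mutant at the same genes. Of the 45 genes, 30 had all 3 pial2-1 libraries above Col-0 (4.72% of all genes tested) and 17 had all 3 pial1-2 libraries above it (6.05%). The median of the mean levels was 8.35 CPM in pial1/2, 0.493 CPM in pial1-2, 2.17 CPM in pial2-1 and 0.199 CPM in Col-0. Summed over the 45 genes, the libraries held 1350 to 1770 CPM in pial1/2, 389 to 438 CPM in pial1-2, 691 to 864 CPM in pial2-1 and 353 to 371 CPM in Col-0. One gene, AT5G27850, made up most of the sums outside pial1/2. Without it the sums were 805 to 1140 CPM in pial1/2, 66.4 to 73.8 CPM in pial1-2, 215 to 342 CPM in pial2-1 and 45.4 to 49.9 CPM in Col-0. By these sums and medians the pial2-1 libraries stood between the double mutant and Col-0, and the pial1-2 libraries stood a little above Col-0. SDC averaged 57.6 CPM in pial1/2, 0.581 CPM in pial1-2, 19.5 CPM in pial2-1 and 0.381 CPM in Col-0. PUM9 averaged 27.4 CPM in pial1/2, 0.0809 CPM in pial1-2, 7.09 CPM in pial2-1 and 0.0461 CPM in Col-0. MRU1 averaged 59.7 CPM in pial1/2, 6.32 CPM in pial1-2, 37.1 CPM in pial2-1 and 4.76 CPM in Col-0. Some of the 45 genes instead followed pial1-2. SADHU3-1 averaged 2.07 CPM in pial1/2 and 2.2 CPM in pial1-2, with 0 CPM in pial2-1 and in Col-0. AT5G60250 averaged 2.52 CPM in pial1/2, 2.31 CPM in pial1-2, 0.388 CPM in pial2-1 and 0.483 CPM in Col-0. NAS2 averaged 3.26 CPM in pial1/2, 6.28 CPM in pial1-2, 2.84 CPM in pial2-1 and 0.865 CPM in Col-0. All these comparisons share the same 3 Col-0 libraries.

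Whether the double mutant departed from the sum of the single mutant effects was tested as an interaction over 12 libraries and 19826 genes, on the log2 scale. It was positive for 31 genes (0.156%) and negative for 0 (0.0%) in edgeR. At an unadjusted p below 0.05 there were 1109 positive and 1200 negative genes, and DESeq2 called 85 positive and 13 negative. With the replicate block the calls were 71 positive and 9 negative. The total of 31 moved to 13, 15 and 13 without pial1-2 replicate 1, 2 and 3, to 18 and 19 without Col-0 replicate 2 and 3, and to 51 without pial1/2 replicate 1. Of the 45 genes 3 were called. ABCG38 averaged 29.4 CPM in pial1/2, 0.122 CPM in pial1-2, 0.962 CPM in pial2-1 and 0.199 CPM in Col-0 (interaction 5.53, SE 0.848, adjusted p = 0.023). SQN averaged 103 CPM in pial1/2, 13.3 CPM in pial1-2, 27.7 CPM in pial2-1 and 13.0 CPM in Col-0 (interaction 1.85, SE 0.325, adjusted p = 0.0481). AT5G07570, a glycine- and proline-rich protein gene, averaged 5.61 CPM in pial1/2, 0.493 CPM in pial1-2, 1.44 CPM in pial2-1 and 1.49 CPM in Col-0 (interaction 3.56, SE 0.406, adjusted p = 0.00375). AT5G07570 was lower in every pial1-2 library than in every Col-0 library, and its call held without any 1 of the 12 libraries. The ABCG38 call was lost without any 1 of the pial1-2 or Col-0 libraries, with adjusted p of 0.0622 to 0.157. The SQN call was lost without any 1 of these, and also without pial1/2 replicate 1 or 3 or pial2-1 replicate 1. For SDC the interaction was 0.95 and for PUM9 1.00, and neither was called.

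The other 28 genes with an interaction were not called between pial1/2 and Col-0. A positive value also arises where single mutants are lower than Col-0 and the double mutant is not. ADH1, for example, averaged 106 CPM in pial1/2, 70.8 CPM in pial1-2, 38.4 CPM in pial2-1 and 99.1 CPM in Col-0. SUS4 averaged 59.4, 37.2, 20.5 and 57.9 CPM in the same order. ADH1 and SUS4 also varied between groups without a pial allele. ADH1 averaged 22.3 CPM in the Col-0 for nrpe1-11, 50.0 CPM in mom2-2 and 137 CPM in morc6-3. In these groups SUS4 averaged 28.4, 27.6 and 70.2 CPM. MRD1 (AT1G53480), named for a fall in the same methionine mutant, had 10.3, 14.3 and 20.9 CPM in pial1/2 and 18.8, 14.5 and 13.6 CPM in Col-0, which overlap. In pial1-2 it had 0.0608, 0 and 0 CPM and in pial2-1 2.58, 0.762 and 4.41 CPM, below both. AT5G35935, a pseudogene locus, had 5.16, 7.44 and 7.47 CPM in pial1/2, 0.243, 0 and 0.141 CPM in pial1-2, 5.03, 5.44 and 4.56 CPM in pial2-1 and 2.65, 5.62 and 6.54 CPM in Col-0. Both loci also varied between the other lines. MRD1 averaged 0.0381 CPM in aipp3-1, 0.15 CPM in mom2-1 and 0.625 CPM in phd1-4, while the second alleles aipp3-2, mom2-2 and phd1-2 averaged 36.8, 34.6 and 34.9 CPM. AT5G35935 was at 0 in aipp3-2 and averaged 0.319 CPM in aipp3-1, 17.3 CPM in mom2-1, 19.1 CPM in morc6-3 and 0.942 CPM in morchex. Lines mutated in the same gene thus differed at MRD1, so low values there and at AT5G35935 were not particular to the pial single mutants.

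**Figure D4:**
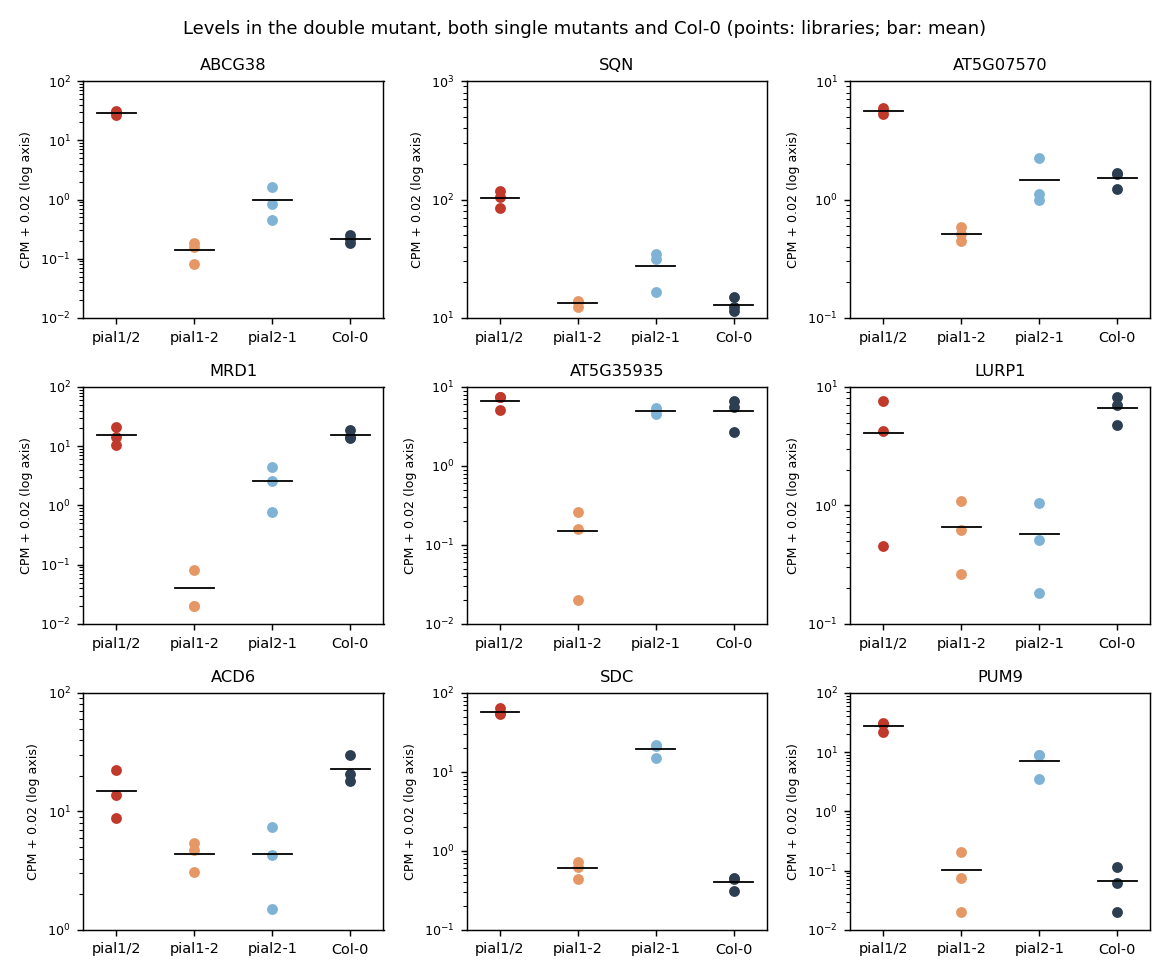
CPM plus 0.02 on log y axes for 9 genes in pial1/2, pial1-2, pial2-1 and Col-0, with a point for each of 3 libraries and a bar at the mean. ABCG38, SQN, SDC and PUM9 are highest in pial1/2, whereas MRD1, AT5G35935, LURP1 and ACD6 overlap between pial1/2 and Col-0 and are low in pial1-2.

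Levels of the 45 genes in the other mutants placed the morc lines nearest to pial1/2. The median of the mean levels was 3.48 CPM in morchex, in which 6 MORC genes are mutated, and 2.38 CPM in morc6-3, against 0.199 CPM in Col-0. All 3 libraries were above Col-0 for 34 of the 45 genes in morchex (15.8% of all genes tested) and for 31 in morc6-3 (16.4%). In nrpe1-11, which lacks the largest subunit of Pol V, 19 genes were above its own Col-0 (3.2%), with a median of 0.578 CPM, against 0.119 CPM in that Col-0. The other MOM1 complex lines were closer to Col-0, with medians of 0.111 CPM in aipp3-1, 0.193 CPM in aipp3-2, 0.15 CPM in mom2-1, 0.321 CPM in mom2-2, 0.155 CPM in phd1-2 and 0.218 CPM in phd1-4. In aipp3-1 8 genes (19.2%) had all libraries above Col-0, in aipp3-2 15 (27.2%), in mom2-1 12 (2.1%), in mom2-2 12 (19.0%), in phd1-2 3 (16.4%) and in phd1-4 5 (14.9%). These lines share the 3 Col-0 libraries, apart from nrpe1-11. Single genes did not all follow this order. SDC averaged 57.6 CPM in pial1/2, 63.9 CPM in morc6-3 and 76.3 CPM in morchex, and 3.92 CPM in nrpe1-11. AT2G11780 averaged 222 CPM in pial1/2, 0.816 CPM in morc6-3, 1.76 CPM in morchex and 0.012 CPM in nrpe1-11. It averaged 9.86 CPM in pial2-1 and 0.621 CPM in pial1-2, against 0.0131 CPM in Col-0. QQS averaged 8.43 CPM in pial1/2, 50.0 CPM in morc6-3 and 10.0 CPM in morchex, against 2.16 to 2.44 CPM in the Col-0 libraries. The aipp3 alleles differed at QQS, with 17.3 CPM in aipp3-2 and 1.9 CPM in aipp3-1. QQS averaged 5.18 CPM in phd1-4 and 7.6 CPM in phd1-2, where its libraries (6.34 to 8.95 CPM) overlapped those of pial1/2 (7.22 to 9.52 CPM). In nrpe1-11 it averaged 0.15 CPM, against 3.07 CPM in its own Col-0. SEP3 averaged 9.60 CPM in pial1/2, 11.8 CPM in pial1-2, 5.76 CPM in pial2-1 and 28.2 CPM in aipp3-2, against 3.96 CPM in Col-0.

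**Figure D5:**
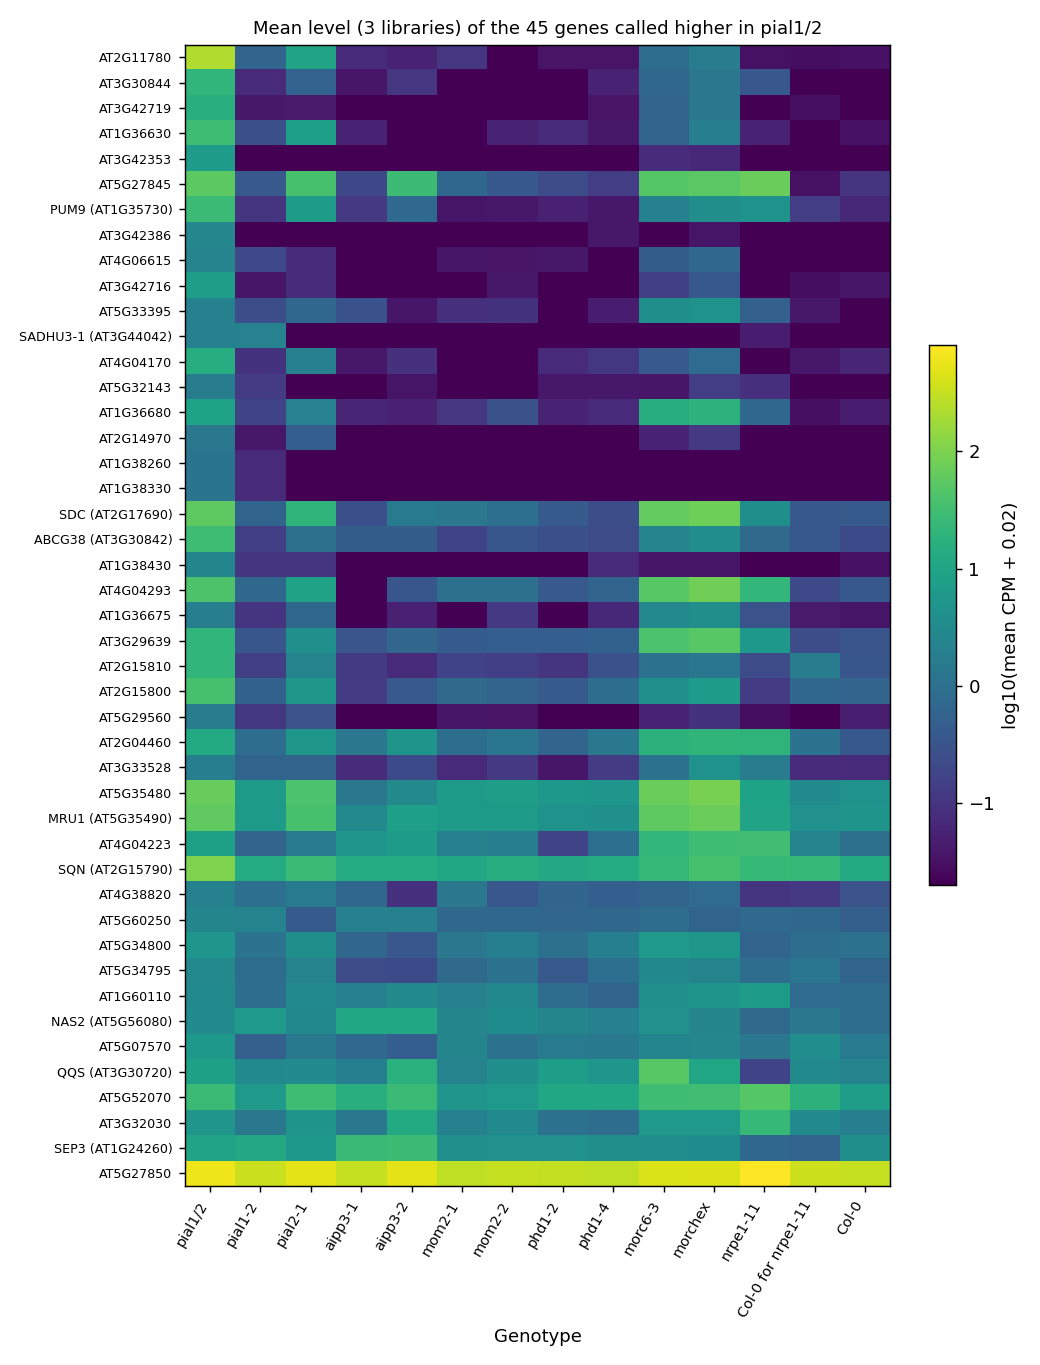
Mean CPM over 3 libraries of the 45 genes called higher in pial1/2, as log10 of the mean plus 0.02, in 14 groups from pial1/2 at the left to Col-0 at the right. Median levels are 8.35 CPM in pial1/2, 3.48 CPM in morchex, 2.38 CPM in morc6-3, 2.17 CPM in pial2-1 and 0.199 CPM in Col-0.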

How the data were processed

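RNA was polyA-selected from whole seedlings and sequenced as a stranded library. The authors aligned reads to TAIR10 with Bowtie2 (2.4.2 in the submitters' processing notes) and deposited an expected count per gene from RSEM at default settings. Their methods name a Trinity script, a log2 fold change of 1 and an adjusted p of 0.05, but not the test that the script ran. The deposited peak lists, called by the authors with MACS2 (2.1.2) against a Col-0 control in unopened flower buds, give a −log10 q for each peak.

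The rounded values went into edgeR 4.0.16 under R 4.3.3 (TMM, quasi-likelihood test, Benjamini-Hochberg adjustment over the 19834 genes, transposable elements and organelle genes that passed the filter), with no covariate. The interaction used pial1/2, both single mutants and Col-0. DESeq2 1.42.0 was an alternative, with other filters, normalizations and Col-0 libraries, leaving out each library, and the replicate number as a block. Same-numbered pial1/2 and Col-0 libraries deviated together in all 3 pairs (r = 0.403, 0.17 and 0.307 over 19834 features). Pairs with other numbers had r from -0.41 to 0.142. The replicate block therefore took the numbers as pairs, while the main fits and their p-values did not use this pairing. All replicate pairs differed by more than sampling noise.

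The labels gave every group. The members, lists and tests were chosen with earlier results of these data known. Genes named were those mutated, the 8 protein coding and 6 other loci with the largest change among called genes whose mean CPM reached 1 and whose groups were separate, up to 8 lower, called list genes, uncalled list genes with the smallest p, and 5 interactions. Others were chosen after their values were seen. In simulated counts 99.0% of 200 genes changed 4-fold were recovered for pial1/2 against Col-0, with 4 false calls, and 90.5% for the interaction, with 4 false calls. The changed genes were picked above a minimum mean count, and libraries were drawn independently. The simulation therefore covers neither genes near the floor in Col-0 nor the pairing of replicate numbers. Coordinates, classes and sequences are from RefSeq TAIR10.1, read with Python 3.11.15 and pandas 2.3.3. TPM and FPKM columns were not used, and mom1 and MOM1 libraries were not analysed here.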

Additional observations from a re-analysis of the deposited data

Results flagged for a closer look

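For 5 genes the difference between lines with and without the pial1-2 allele itself differed between lines with and without pial2-1 (edgeR interaction on the log2 scale, 12 libraries). Levels of MRD1, AT5G35935, LURP1 and ACD6 also varied widely between lines that carry neither allele. LURP1 averaged 6.22 CPM in mom2-1 and 0.503 CPM in mom2-2, and its aipp3-1 libraries held 0.229, 1.69 and 47.6 CPM. ACD6 averaged 41.1 CPM in phd1-2 and 15.5 CPM in phd1-4. MRD1 averaged 0.0381 CPM in aipp3-1 and 36.8 CPM in aipp3-2, and AT5G35935 averaged 17.3 CPM in mom2-1 and 1.70 CPM in mom2-2. So the values describe these lines, and a part of the pial alleles in them was not tested apart from other differences between lines. MRD1 had an interaction of 11.9 (SE 0.948, adjusted p = 2.58e-04) and was called under every setting tried, each left-out library included. Its pial1-2 libraries held 0.0608, 0 and 0 CPM, so the fitted value is no bound on a fold. AT5G35935 had an interaction of 5.64 (SE 0.639, adjusted p = 0.00375), also called under every setting. LURP1 had 6.23 (SE 1.1, adjusted p = 0.0481), with 0.435, 4.21 and 7.52 CPM in pial1/2, and its call was lost without any 1 of the 12 libraries other than pial1/2 replicate 1. ABCG38 had 5.53 (SE 0.848, adjusted p = 0.023) and lost its call without any 1 of the pial1-2 or Col-0 libraries. ACD6, a regulator of salicylic acid defence, had 4.18 (SE 0.631, adjusted p = 0.0209), with 8.71, 13.6 and 22.4 CPM in pial1/2, 3.04, 5.41 and 4.72 CPM in pial1-2, 7.40, 1.47 and 4.26 CPM in pial2-1 and 30.1, 20.5 and 18.0 CPM in Col-0. Its call was lost without any 1 of the pial1-2 libraries and without Col-0 replicate 1 or 2. What sets these values apart was not tested.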

How the results depend on the processing

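The 45 higher calls were all shared with DESeq2's Wald test, with DESeq2 size factors, with a CPM minimum of 0.5, with no filter and with the replicate block. Leaving out each library gave 36 to 43 calls in all, 35 to 42 higher and 1 to 2 lower, 3 to 4 list genes and 13 to 51 interactions. Lower calls numbered 5 with DESeq2, 4 with no filter, 8 with the replicate block (from the paired numbers), 1 with genes only in the fit and 6 with all RNA-seq groups in 1 fit. Interactions numbered 98 with DESeq2, 49 with no filter and 80 with the replicate block. Against the Col-0 libraries grown for nrpe1-11, 3309 genes were called, 1680 higher and 1629 lower, with 67 list genes, and 40 of the 45 higher and both lower genes were among them. Against those libraries PIAL1 (-0.344) and OPR3 (0.716) reversed. The cause was not tested. Of 421 values for single named results, 384 kept their status (called or not called) and direction, 35 lost their call and 2 reversed. The 384 include values of genes that had no call to lose, such as PIAL1, CLSY1, ROS1, OPR3 and BRCA1. Below about 1 CPM genes were not tested, and 0 counts in Col-0 leave a fold only as a lower bound.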
